A study of Mus musculus with 8 samples.

Results

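The genes described here encode the machinery by which kidney proximal tubule cells take filtered proteins back up: Lrp2 (megalin) and Cubn (cubilin), which are receptors, Amn (amnionless), Dab2 and Clcn5. They were matched by gene symbol, and all 5 were found among the 18193 genes measured. RNA levels were read on Affymetrix mouse arrays from cells with GFP that had been sorted out of kidneys of male C57BL/6 mice carrying an FSP1-eGFP transgene, in which GFP marks cells with an active FSP1 (S100a4) promoter. The 5 ischemic samples came from mice killed on day 3 after a clamp had closed the artery and vein of the left kidney for 45 minutes. The other 3 samples are normal kidney, which the labels also call sham, and no clamp time is given for them. All mice were 6 months old, and the labels give buprenorphine for pain after the surgery. How many animals the 3 normal samples came from is not stated, and the p-values measure the spread between these 8 arrays only. The reporter selects cells by 1 promoter, so a sorted sample can hold several cell types. The comparison asks how the sorted cells of a kidney in acute injury differ from those of a kidney without it.

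Megalin is a very large receptor of the LDL receptor family. Cubilin has no membrane-spanning part of its own and is carried to the surface by amnionless, and both receptors bind albumin, vitamin carriers and many other filtered proteins at the foot of the brush border. Dab2 is the adaptor that links the receptor tails to clathrin, and Clcn5 is the chloride/proton exchanger that helps to acidify the endosomes, the gene lost in Dent disease. Lrp2, Cubn and Amn are known in the kidney mainly from the proximal tubule. Dab2 is also made by macrophages, endothelium and fibroblasts, and Clcn5 is found in intercalated cells as well.

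The promoter windows of Lrp2, Cubn and Amn, the members that had lower values in every ischemic array, are shown here because these genes differed in the same direction. Each runs 5′ to 3′ on the gene's strand, from 250 bases before to 50 bases after the start, in RefSeq's GRCm38.p6, at chr2:69585980-69586279 (minus strand) for Lrp2, chr2:13491827-13492126 (minus strand) for Cubn and chr12:111270846-111271145 (plus strand) for Amn. Capitals mark CAAAG on either strand, the core of half-sites known to be bound by HNF4 factors, which act in proximal tubule genes.
Lrp2: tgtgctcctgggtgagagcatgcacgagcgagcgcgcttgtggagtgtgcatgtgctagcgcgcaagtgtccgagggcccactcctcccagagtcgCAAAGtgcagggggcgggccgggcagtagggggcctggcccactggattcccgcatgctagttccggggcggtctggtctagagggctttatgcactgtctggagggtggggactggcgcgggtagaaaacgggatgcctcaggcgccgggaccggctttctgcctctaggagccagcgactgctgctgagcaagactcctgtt
Cubn: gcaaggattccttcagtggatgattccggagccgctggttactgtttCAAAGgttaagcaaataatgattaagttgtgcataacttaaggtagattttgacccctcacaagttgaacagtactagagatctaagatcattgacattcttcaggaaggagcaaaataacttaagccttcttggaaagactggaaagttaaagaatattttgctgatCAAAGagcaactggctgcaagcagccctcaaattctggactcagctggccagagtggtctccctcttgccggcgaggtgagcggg
Amn: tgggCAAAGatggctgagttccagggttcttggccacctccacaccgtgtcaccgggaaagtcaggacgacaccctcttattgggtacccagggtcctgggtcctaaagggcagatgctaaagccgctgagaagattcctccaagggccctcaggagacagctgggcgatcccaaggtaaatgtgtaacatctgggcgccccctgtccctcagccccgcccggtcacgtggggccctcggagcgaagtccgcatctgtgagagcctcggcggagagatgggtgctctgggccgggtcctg
Lrp2 and Amn each held 1 match to CAAAG and Cubn held 2, while 53.93% of all 32851 windows of this length hold at least 1, so the motif does not set these windows apart. The windows differed in base composition. GC content was 65.0% for Lrp2 and 62.3% for Amn against 44.3% for Cubn (median of all windows 52.67%). The number of CpG pairs was 20, 15 and 5 (median of all windows 7). GTTAAT on either strand, the half-site of HNF1 factors, was in none of the 3 and in 7.1% of all windows. Of the 4 windows of Dab2 and Clcn5, which each have 2 starts in the table, 1 (Dab2) held it. For CAAAG, 1 window of each of these 2 genes held 2 matches and the other held 0. These are descriptions of letters in a window and say nothing of binding.

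Values are log2(intensity + 16) after quantile normalization, where the median over all probe sets is 5.47 and the lower quartile 4.58. Each probe set, a group of probes for 1 transcript, has its own brightness, so levels are compared between arrays and not between genes. Several arrays stood apart. Across genes, ischemic 1 correlated with the remaining arrays at a median of 0.752, where the rest had medians of 0.850 to 0.913. The closest pair was ischemic 5 with normal 3 (0.976). Normal 3 correlated at 0.950 with ischemic 3 and between 0.762 and 0.913 with ischemic 1, 2 and 4. With normal 1 and normal 2 it correlated at 0.891 and 0.923. Xist, the RNA of the inactive X chromosome, was at 11.19 in ischemic 1, 9.39 in ischemic 2 and 11.01 in normal 1. It was between 4.49 and 4.96 in the other arrays, although the labels call the mice male. Eif2s3y, a gene of the Y chromosome, was lowest in ischemic 1 and normal 1, at 5.84 in both. It was at 7.78 in ischemic 2 and between 7.68 and 8.87 in the other arrays. The sex of the mice behind each array was not tested. S100a4, the gene behind the reporter, averaged 11.97 ± 0.27 (SD) over the 5 ischemic and 11.61 ± 0.32 (SD) over the 3 normal arrays. The labels call the sorted cells fibroblasts, from the shape of a part of them in culture. Of 8 fibroblast markers, 4 reached the median level of the genes measured. All measured markers of macrophages (13), proximal tubule (15), thick limb and distal tubule (6) and endothelium (6) reached it too, so signal for several cell types was present. Such counts do not rank the cell types.

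Lrp2 was lower in every ischemic array than in any normal array. Its level was 10.94, 9.93 and 8.82 in normal 1 to 3, and 5.21, 7.55, 6.66, 4.64 and 6.06 in ischemic 1 to 5. The ischemic arrays were spread widely, with ischemic 2 highest and ischemic 4 lowest, and normal 3 was the lowest of its group. On the deposited scale the intensities were 2169.78, 1143.47 and 485.48 in the normal arrays and between 7.83 and 154.33 in the ischemic arrays. Ischemic arrays averaged 6.02 ± 1.15 (SD, n = 5), and normal arrays averaged 9.90 ± 1.06 (SD, n = 3). The difference of -3.87 ± 0.71 (SE), a 14.7-fold lower level on this scale, was the 4th lowest of all 18193 genes. It did not pass limma over all genes (adjusted p = 0.140), and it reached the smallest p that a two-sided exact permutation test can give with 56 ways to split the arrays (0.0179).

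Cubn showed the same order of groups. Its level was 9.10 and 8.93 in normal 1 and 2, but 6.22 in normal 3. The ischemic arrays were at 4.68, 4.84, 5.79, 4.74 and 4.94, and only ischemic 3 came near normal 3. Apart from ischemic 3, the ischemic arrays lay below the median of all probe sets, where small differences are hard to measure. The means were 5.00 ± 0.45 (SD, n = 5) and 8.08 ± 1.61 (SD, n = 3), a difference of -3.09 ± 0.64 (SE). It was not past the threshold in limma (adjusted p = 0.159; exact permutation p = 0.0179). Without normal 3 it was -4.01 and passed (limma adjusted p = 0.0195), and without normal 1 it was -2.57 (limma adjusted p = 0.610).

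Amn, the partner that cubilin needs to reach the surface, had weak signal after ischemia. It was at 6.66, 7.003 and 5.79 in the normal arrays and at 4.16, 5.39, 4.60, 4.58 and 4.62 in the ischemic arrays. The groups did not overlap, and all 5 ischemic arrays lay below the median of all probe sets, 2 of them at or below the lower quartile. The difference of the means, 4.67 ± 0.45 (SD, n = 5) against 6.48 ± 0.63 (SD, n = 3), was -1.81 ± 0.36 (SE; limma adjusted p = 0.149; exact permutation p = 0.0179). At such low signal the size depends on the number added before taking logs: it was -3.02 with 1 and -0.91 with 64 in place of 16.

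Dab2, the clathrin adaptor of the set, did not follow the receptors. It was bright in all arrays, at 10.95, 10.73 and 10.11 in normal and at 10.44, 11.04, 11.18, 11.01 and 10.61 in ischemic arrays. The groups overlapped, and normal 1 was above ischemic 1 and ischemic 5. The means were 10.86 ± 0.31 (SD, n = 5) and 10.60 ± 0.44 (SD, n = 3). The difference of 0.26 ± 0.28 (SE) had a 95% interval from -0.38 to 0.90 in limma (adjusted p = 0.954; exact permutation p = 0.393). The interval leaves room for a change of either sign but not for one as large as those of the receptors. Centring on ribosomal protein genes gave -0.051, so its sign is not settled.

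Clcn5 had overlapping groups too. It was at 7.09, 6.91 and 7.07 in normal arrays and at 7.09, 7.20, 8.20, 6.51 and 7.09 in ischemic arrays. Ischemic 3 was the highest and ischemic 4 the lowest of all 8, so the normal arrays lay within the range of the ischemic ones. The difference was 0.20 ± 0.35 (SE) with a 95% interval from -0.61 to 1.00 in limma (adjusted p = 0.965; exact permutation p = 0.607). Without ischemic 3 it was -0.049, and centring on ribosomal protein genes gave -0.029.

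**Figure D1:**
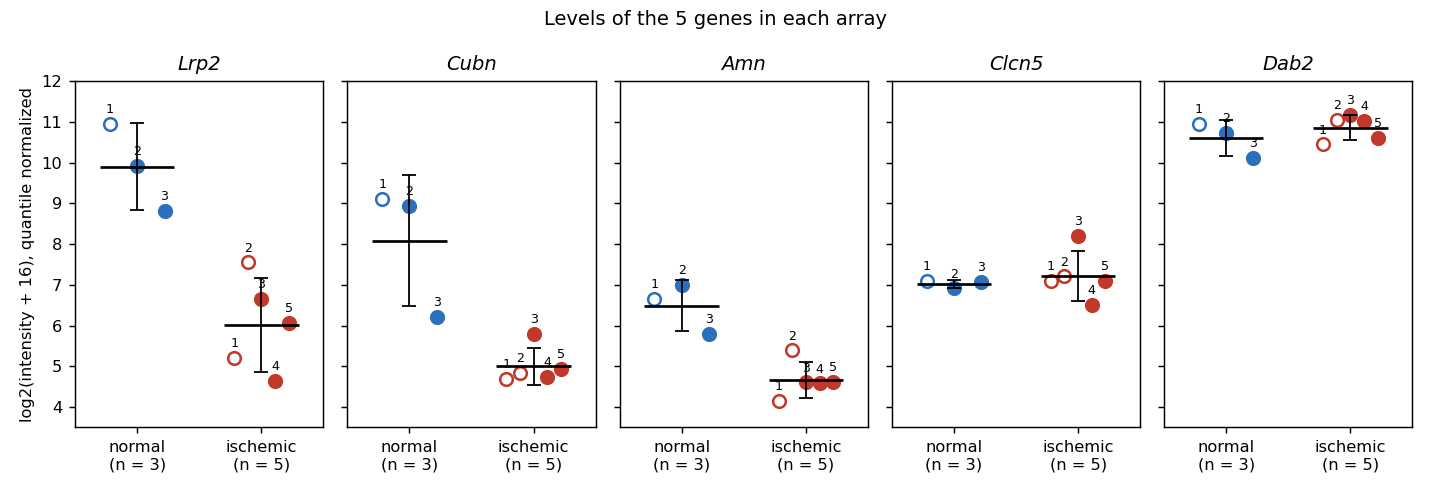
Levels of the 5 genes in each array, as log2(intensity + 16) after quantile normalization; numbers beside the points are the replicate, open points are the 3 arrays with high Xist signal, and lines and bars are the group mean and SD (n = 3 normal, n = 5 ischemic). Lrp2, Cubn and Amn are lower in every ischemic array, while the groups overlap in Clcn5 and Dab2.

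Over all genes tested no gene passed limma at an adjusted p of 0.05 (0%), the 5 members included, and at an unadjusted p under 0.05, 912 were lower and 383 higher. With arrays centred on ribosomal protein genes that split was 1467 and 140, and centring on array medians gave 1011 and 235. Of the 5 members, 3 were lower at an unadjusted p under 0.05, where 5.01% of all genes were, and none was higher, where 2.11% of all genes were. In 3 of the 5 members every ischemic array was below every normal array, which held for 3.42% of all genes. In no member was the order the reverse (1.89% of all genes). The members were chosen with earlier results of these data known, so these shares only describe them. With the intensity trend in limma's variance, Lrp2 passed (adjusted p = 0.0426), and centring on ribosomal protein genes brought Lrp2, Cubn and Amn past it (limma adjusted p = 0.0273, 0.0414 and 0.0416), while the median difference over all genes went from 0.041 to -0.090. In the arrays with low Xist signal, 3 ischemic and 2 normal, the differences were -3.65 for Lrp2, -2.49 for Cubn, -1.87 for Amn, 0.50 for Dab2 and 0.28 for Clcn5, in a design whose smallest exact p is 0.1. Without ischemic 1 they were -3.71, -3.07, -1.73, 0.35 and 0.23 in the same order. In sorted cells taken as bulk, fewer cells of a type and less RNA per cell cannot be told apart.

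Set against Dab2 of the same array, the 3 genes of the receptor complex separated the groups and Clcn5 did not. The log2 value of Lrp2 minus that of Dab2 averaged -4.84 ± 1.06 (SD, n = 5) after ischemia and -0.70 ± 0.65 (SD, n = 3) without it, a difference of -4.14. For Cubn minus Dab2 the means were -5.86 ± 0.37 (SD, n = 5) and -2.51 ± 1.19 (SD, n = 3), a difference of -3.35. For Amn minus Dab2 they were -6.19 ± 0.37 (SD, n = 5) and -4.11 ± 0.33 (SD, n = 3), a difference of -2.07. In each of these 3 pairs no ischemic array overlapped a normal one, and the two-sided exact permutation p was the smallest possible (0.0179; 0.0238 after Benjamini-Hochberg over the 4 pairs). Lrp2, Cubn and Amn had groups apart on their own, and all pairs share the same Dab2 values. The p-values of these pairs are thus not separate from those of the genes. For Clcn5 minus Dab2 the means were -3.64 ± 0.57 (SD, n = 5) and -3.57 ± 0.46 (SD, n = 3), a difference of -0.065 (exact permutation p = 0.929). With 1 array left out this last difference ran from -0.22 to 0.20. Only changes between groups are read from these values, since the gap between 2 probe sets within an array has no meaning of its own.

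**Figure D2:**
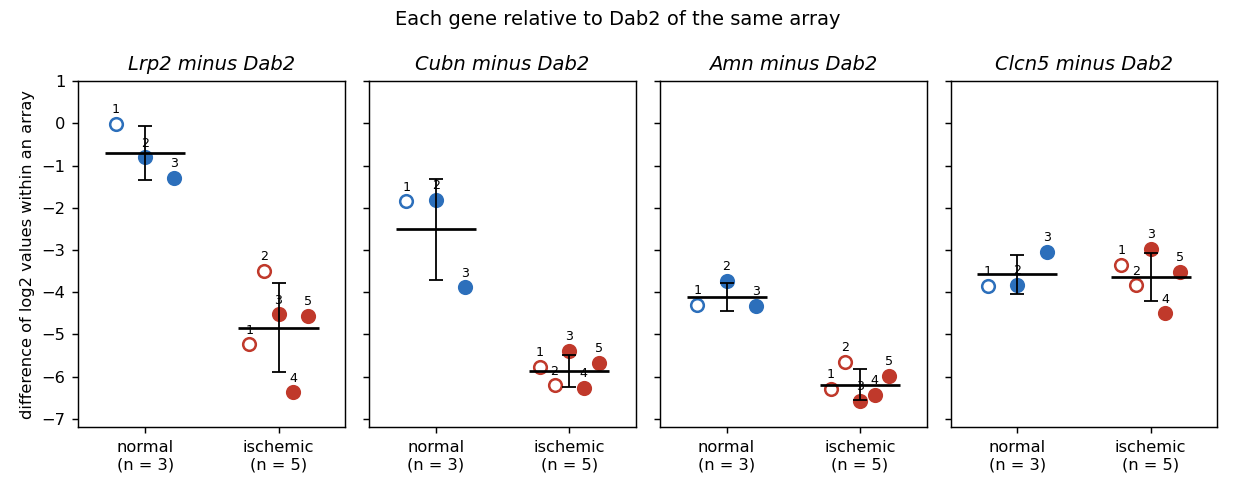
Log2 value of Lrp2, Cubn, Amn or Clcn5 minus that of Dab2 in the same array, by group (points with replicate numbers; open points have high Xist signal; lines and bars are mean and SD, n = 3 normal and n = 5 ischemic). The first 3 panels show groups that do not overlap, with differences of -4.14, -3.35 and -2.07, and the last shows overlapping groups.

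The arrays carry 14 probe sets for the 5 genes, and these agreed in direction for the receptors. All 3 probe sets of Lrp2 had groups that did not overlap, with differences of -3.87, -3.50 and -1.996. The last of these, 1445901_at, was near the lower quartile in the ischemic arrays and in normal 3 (4.95), and it was highest in normal 1 (8.86). Of the 2 probe sets of Cubn, the dimmer 1426990_at differed by -1.24 ± 0.70 (SE), and its groups overlapped because ischemic 1 (6.65) was above normal 2 (5.61) and normal 3 (5.63). Among the 34945 probe sets with 1 gene symbol, every ischemic array was below every normal array in 2.92% and above in 1.77%.

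The 4 probe sets of Dab2 all had positive differences, but of unequal size. For 1429693_at the ischemic arrays were at 9.77, 10.52, 10.51, 9.62 and 9.61 and the normal arrays at 9.44, 8.58 and 9.20. No array of the groups overlapped there, and the difference was 0.93 ± 0.33 (SE; limma adjusted p over all probe sets = 0.613; exact permutation p = 0.0357). The other 3 probe sets differed by 0.26, 0.40 and 0.11 with overlapping groups. Which transcripts of Dab2 each probe set reads is not given in the sources used here. The 4 probe sets of Clcn5 differed by -0.031 to 0.20, all with overlapping groups, and 1441831_x_at was dim in all arrays (4.11 to 4.96).

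**Figure D3:**
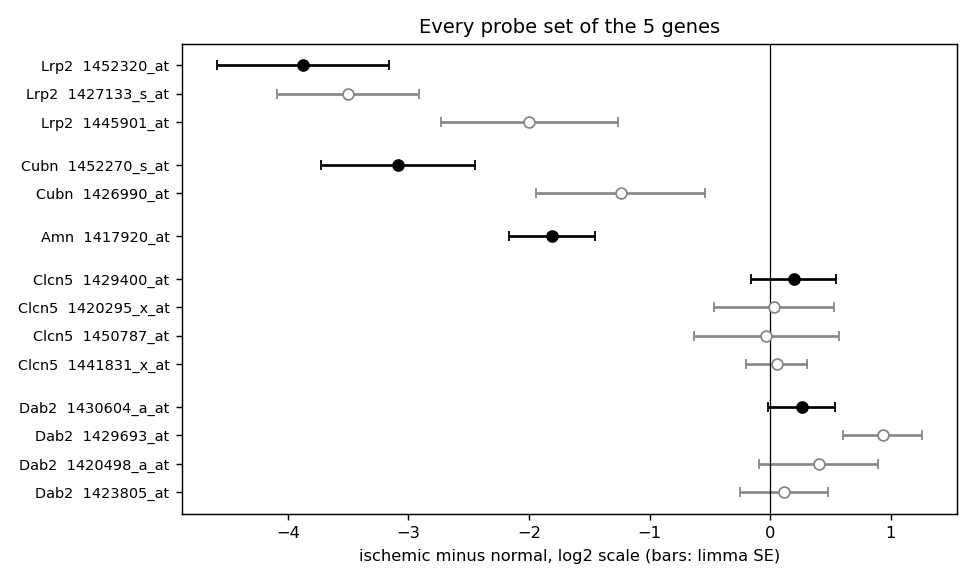
Difference ischemic minus normal on the log2 scale for each of the 14 probe sets, with limma SE as bars; filled points are the brightest probe set of a gene, which stands for it elsewhere. The probe sets of Lrp2, Cubn and Amn lie to the left of 0, those of Clcn5 near 0 and those of Dab2 between 0.11 and 0.93.

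Other proximal tubule genes were lower in the same arrays as the receptors. The mean of 15 measured proximal tubule markers, among them Slc34a1 and Slc22a6, was 11.03, 10.48 and 9.58 in the normal arrays and 6.999, 8.46, 8.11, 6.37 and 7.54 in the ischemic arrays. In both groups its order of arrays was that of Lrp2, with ischemic 2 highest, ischemic 4 lowest and normal 3 lowest of the normal arrays. Cubn kept that order in the normal but not in the ischemic arrays, where ischemic 3 was highest and ischemic 1 lowest. All 15 were lower in the ischemic group, with a median difference of -3.13 against 0.041 over all genes tested. They ran from -3.88 (Slc34a1) to -0.51 (Aqp1), and the difference of Lrp2 itself, -3.87, lay within that range. A difference from the marker mean is thus not particular to Lrp2, and Slc22a6 differed by -3.81. Of the 15 markers, 12 had groups that did not overlap, as did 3.42% of all genes in that direction. The brightest of them, the water channel Aqp1, differed by -0.51 ± 0.45 (SE; -0.83 without normal 1). Its order of arrays was not that of the marker mean. Among normal arrays it was lowest in normal 1 (10.71), and among ischemic arrays highest in ischemic 5 (11.68) and ischemic 4 (11.53). Relative to the marker mean of its array, Lrp2 differed by -1.01 (-1.47 ± 0.35, SD, n = 5, against -0.47 ± 0.34, SD, n = 3; exact permutation p = 0.0179, adjusted over 5 such comparisons 0.0446), and by -0.46 where probe sets of 1 gene were averaged (exact permutation p = 0.196). With 1 array left out the difference stayed between -1.15 and -0.81, though without ischemic 1, 3, 4 or 5 the exact permutation p was 0.0571. Comparisons with marker means were added once values had been seen, so their p-values only describe these arrays. Cubn relative to the same mean differed by -0.22 (exact permutation p = 0.679), with no settled sign: it was 0.35 with 64 added before taking logs, 0.50 where probe sets were averaged, 0.060 without ischemic 2, 0.16 without normal 2 and -0.73 without normal 3. Amn differed by 1.06 (exact permutation p = 0.0536), by 0.15 with 1 added (exact permutation p = 0.857) and by 1.51 with 64 added (exact permutation p = 0.0179).

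Markers of other tubule segments had the same sign. All 6 thick limb and distal tubule markers were lower (median difference -2.36), and in all 6 the groups did not overlap (3.42% of all genes in that direction). The brightest, Umod, which encodes uromodulin, differed by -1.88 ± 0.33 (SE). All 5 intercalated cell markers were lower, with a median of -0.78. Of these, 2 had groups apart (3.42% of all genes in that direction), and only 2 reached the median level of the genes measured. The chloride/bicarbonate exchanger Slc4a1 differed by -1.50 ± 0.36 (SE). Clcn5, known from these cells too, differed by 0.20. Podocytes also make megalin. Of their 4 measured markers, 2 were lower and 2 higher (median -0.35), none with groups apart, and 2 reached the median level of the genes measured. The brightest, Podxl, which encodes podocalyxin and is also made by endothelium, ranged from 6.41 to 11.36 in ischemic and from 8.19 to 10.82 in normal arrays. It differed by -1.06 ± 1.09 (SE), by -0.49 without ischemic 1, by -0.52 without normal 3, by -1.73 without ischemic 5 and by -1.82 without normal 1. The part of each cell type in the differences of Lrp2, Cubn and Amn was not tested.

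Dab2 lay beside a different set of markers. The mean of 13 macrophage markers was 8.87, 8.98 and 8.89 in normal arrays and 9.38, 10.15, 10.31, 10.01 and 9.44 in ischemic arrays, so the groups did not overlap. Among ischemic arrays the order of Dab2 was that of the macrophage mean, with ischemic 3 highest and ischemic 1 lowest in both, while among normal arrays Dab2 was highest in normal 1 and the macrophage mean in normal 2. All 13 markers were higher, from 0.027 (C1qa) to 2.08 (Mrc1), with a median of 0.72. In 5 of them every ischemic array was above every normal array, as in 1.89% of all genes. The brightest marker, the lysozyme gene Lyz2, differed by 0.39 ± 0.23 (SE). Relative to the macrophage mean of its array Dab2 was lower in every ischemic array, at 1.00 ± 0.12 (SD, n = 5) against 1.68 ± 0.44 (SD, n = 3). That difference of -0.68 had an exact permutation p of 0.0179 (0.0446 adjusted over the 5 comparisons), and it was -0.55 with the most variable probe set of each gene (exact permutation p = 0.161). It depends on the probe set of Dab2, since 1429693_at differed by 0.93, beside 0.95 for the macrophage mean. Clcn5 relative to the same mean differed by -0.75 (exact permutation p = 0.0893). Both comparisons were added once values had been seen, so their p-values only describe these arrays. Endothelial markers, whose cells also make Dab2, were lower in all 6 cases (median -1.25, no groups apart, against 3.42% of all genes in that direction). The brightest, the angiopoietin receptor Tek, differed by -1.50 ± 1.06 (SE; -0.72 without ischemic 1). Of the 8 fibroblast markers, 2 were lower and 6 higher (median 0.44), none with groups apart, and the brightest, Thy1, differed by -0.011 ± 0.41 (SE). How far each cell type adds to the Dab2 signal was not tested.

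**Figure D4:**
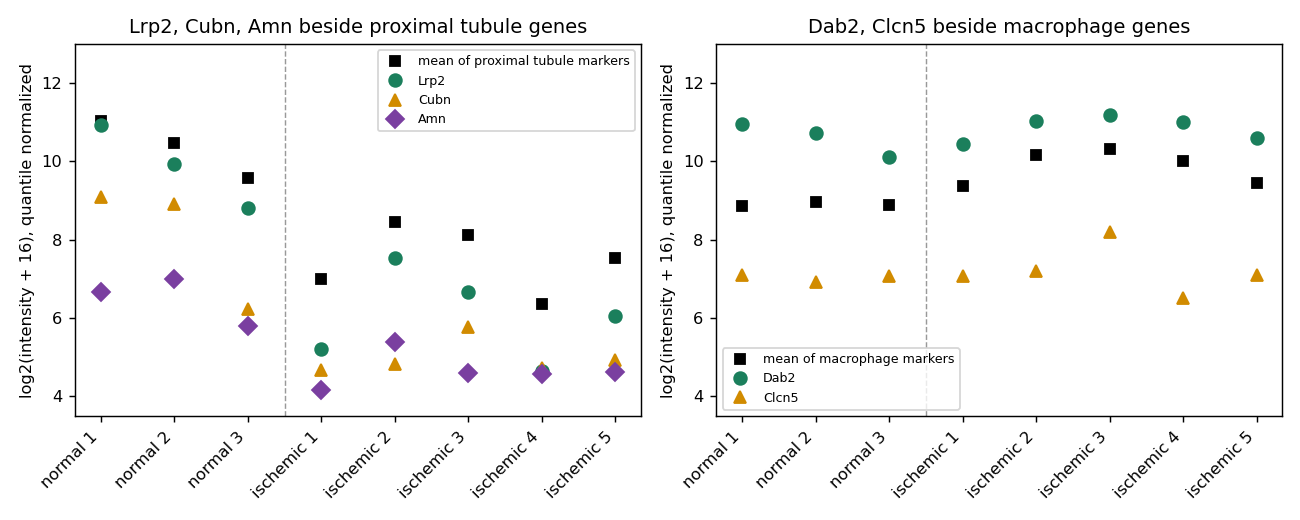
Levels in each array, as log2(intensity + 16) after quantile normalization, of Lrp2, Cubn and Amn beside the mean of 15 proximal tubule markers (left) and of Dab2 and Clcn5 beside the mean of 13 macrophage markers (right); the dashed line parts normal from ischemic arrays. On the left all 4 series are lower in the ischemic arrays, and on the right the marker mean is higher while Dab2 and Clcn5 overlap between groups.

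The genes with the most similar profiles were sought by the root mean square of the differences between 2 genes over the 8 arrays, with each gene's mean removed, among genes at or above the median level. For Lrp2 they were Kcnj15, a potassium channel gene, at 0.28, Spink1, a protease inhibitor gene, at 0.35 and Slc4a4, the basolateral bicarbonate transporter of the proximal tubule, at 0.35, where the median over all candidates was 2.19. For Cubn they were Slc7a9, an amino acid transporter subunit of the proximal tubule, at 0.29, Slc13a1, a sulfate transporter, at 0.30 and Fmo1, a monooxygenase, at 0.43 (median 1.83). For Amn they were Mdk, the growth factor midkine, at 0.21, Celsr2 at 0.29 and Abcd3, a peroxisomal transporter, at 0.31 (median 1.15). Dab2 lay closest to Elp2, Vrk3 and Rpsa (0.16 to 0.17, median 0.70) and Clcn5 to Naa20, Ccnh and Fbxo3 (0.21 to 0.23, median 0.75). These choices depend in part on ischemic 1, the array that stood apart. Without it the 3 genes named for Lrp2 kept ranks 1, 2 and 3, those for Cubn had ranks 1, 2 and 4 and those for Amn ranks 1, 3 and 10. Those for Dab2 had ranks 3, 6 and 7 and those for Clcn5 ranks 22, 29 and 16, so for Clcn5 none stayed among the nearest. Among the members, the distance was 0.92 between Lrp2 and Cubn, 0.92 between Cubn and Amn and 1.23 between Lrp2 and Amn. It was 0.47 between Dab2 and Clcn5, and 1.05 to 2.16 for the pairs of Dab2 or Clcn5 with the other 3. Amn was thus nearer to Dab2 (1.05) and Clcn5 (1.15) than to Lrp2. The distance grows with the size of the changes, so genes that vary little lie close together whatever their order of arrays.

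Of the other genes of the pathway, 68 in 6 lists, 62 were analysed here, and 36 of them were lower and 26 higher. None passed limma over all genes, 6 were lower and 2 higher at an unadjusted p under 0.05, and in 5 every ischemic array was below every normal array. Over all genes tested, 5.01% were lower at that p and 3.42% had every ischemic array below every normal array. The median over the 62 was -0.12, against 0.041 over all genes tested.

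The adaptors and the chaperone were mixed. Myo6, the motor that carries endocytic vesicles away from the membrane, was at 7.75, 8.47 and 7.18 in normal and at 4.92, 4.71, 6.34, 5.92 and 6.94 in ischemic arrays. Its groups did not overlap, though ischemic 5 came close to normal 3, and the difference was -2.03 ± 0.55 (SE; limma adjusted p = 0.286). Numb, another adaptor, differed by -0.86 ± 0.56 (SE; -0.49 without ischemic 2), and Appl1, an early endosome adaptor, by -0.16 ± 0.25 (SE). Lrpap1, the chaperone of megalin in the secretory pathway, was between 9.13 and 9.39 in the normal arrays and between 8.64 and 9.51 in ischemic 2 to 5, with only ischemic 1 low (5.90). Of 7 measured, 5 were lower, and Myo6 was the only one with groups apart (3.42% of all genes in that direction).

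The clathrin coat did not share the difference of the receptors. Of 12 measured genes, 4 were lower and 8 higher, and the median was 0.15 against 0.041 over all genes tested. None had groups apart (3.42% of all genes lower, 1.89% higher) or an unadjusted p under 0.05 (5.01% lower, 2.11% higher). At those shares a list of this size can hold none, so these counts do not set it apart. The clathrin light chain Clta, the brightest, differed by 0.58 ± 0.29 (SE) and the AP-2 subunit Ap2s1 by 0.65 ± 0.40 (SE; 0.43 without normal 1), neither past the threshold. The endosomal sorting genes, which include the Rab GTPases of early and recycling endosomes, had a median of -0.18 over 11, with 8 lower, none apart and none at an unadjusted p under 0.05. Snx17, a sorting nexin that recycles LDL receptor family members, differed by 0.55 ± 0.37 (SE) and ran from 0.15 to 0.91 with 1 array left out. Rab4a differed by -0.88 ± 0.65 (SE; -0.40 without ischemic 1), and Ehd1, the brightest, by 0.0022 ± 0.30 (SE).

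Among the 11 measured genes of endosomal ion transport and lipid phosphatases, Slc9a3, the sodium/proton exchanger of the brush border and its endosomes, was the member with groups apart. It was at 7.95, 6.48 and 7.07 in normal arrays and at 4.70, 4.61, 5.44, 5.02 and 5.05 in ischemic arrays. The groups did not overlap (3.42% of all genes in that direction), and the difference was -2.20 ± 0.35 (SE; limma adjusted p = 0.128). With arrays centred on ribosomal protein genes it passed (-2.34; limma adjusted p = 0.0273), and it was -1.17 where its probe sets were averaged and -1.29 with 64 added before taking logs. Clcn4, a close relative of Clcn5, differed by -0.88 ± 0.47 (SE) with overlapping groups (-1.50 without normal 3). Ocrl, the phosphatase lost in Lowe syndrome, differed by 0.43 ± 0.45 (SE). Atp6ap2, the brightest, differed by -0.071 ± 0.19 (SE), and the median of the list was -0.071.

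The other LDL receptor family members divided. Lrp1, the relative of megalin that macrophages and fibroblasts use for uptake, was at 7.01, 7.07 and 7.93 in normal and at 9.17, 9.62, 8.66, 8.44 and 7.77 in ischemic arrays. It was thus higher in 4 of the 5 ischemic arrays than in any normal array, with ischemic 5 below normal 3, and differed by 1.39 ± 0.43 (SE; limma adjusted p = 0.392). It was 0.42 with the most variable probe set of the gene and 0.91 where its probe sets were averaged. Lrp11 differed by -0.88 ± 0.33 (SE; -0.56 without normal 2) and was dim (4.38 to 6.22). Of 11 measured, 6 were lower and 5 higher with none apart (3.42% of all genes lower, 1.89% higher), and the median was -0.0072. Sorl1, the brightest, differed by -0.21 ± 0.35 (SE).

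Of the ligands and vitamin carriers, 10 were measured, and 3 had groups that did not overlap, all of them lower (3.42% of all genes). Folr1, the folate receptor that works with megalin in the proximal tubule, was at 9.18, 7.65 and 7.47 in normal and between 5.28 and 6.25 in ischemic arrays, a difference of -2.40 ± 0.43 (SE; limma adjusted p = 0.139). Ttr, which encodes transthyretin, a carrier of thyroid hormone and of retinol-binding protein, differed by -3.47 ± 0.77 (SE; limma adjusted p = 0.183). Tcn2, the vitamin B12 carrier transcobalamin that megalin takes up, was the brightest and differed by -1.46 ± 0.40 (SE; limma adjusted p = 0.286). Alb, which encodes albumin, the best known filtered ligand, was dim in both groups (5.33 to 6.33). Apoe, a lipid carrier made by macrophages, differed by 0.75 ± 0.32 (SE; limma adjusted p = 0.683).

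**Figure D5:**
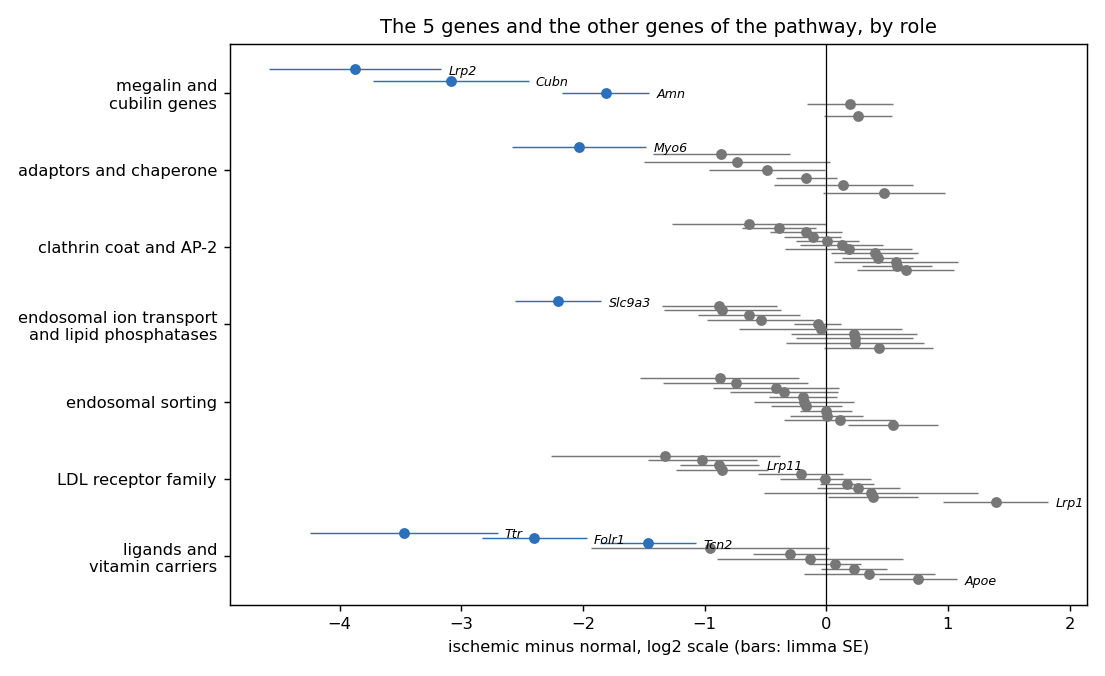
Difference ischemic minus normal on the log2 scale, with limma SE as bars, for the 5 genes and the 62 other measured genes of the pathway, grouped by role; blue points have every ischemic array below every normal array, grey points have overlapping groups, and names are given at an unadjusted limma p under 0.05. Lrp2 (-3.87), Ttr (-3.47) and Cubn (-3.09) lie farthest to the left and Lrp1 (1.39) farthest to the right.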

How the data were processed

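Kidneys were digested, cells with GFP were collected by FACS, and their RNA was extracted (miRNeasy), amplified (WT-Ovation Pico) and labelled with biotin, per the labels' protocols. The authors deposited linear probe set intensities for 8 arrays; their software, background correction, summary and scaling: not given in the sources used here. Amplification of little RNA can add spread between arrays, and precision is limited by how few arrays there are.

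Intensities were taken as log2(value + 16) and quantile normalized, since the array medians differed by up to 0.30 before. Of 45101 probe sets, 64 were controls, 34945 had 1 gene symbol, 932 several and 9160 none in the annotation used, which is old. Of the 34945, 34741 matched a RefSeq gene ID and 0 symbols changed. A gene was its probe set with the highest mean, with no filter on brightness (18193 genes). The groups, taken from the sample titles, were compared with limma 3.58.1 in R 4.3.3 (Benjamini-Hochberg over all genes, threshold 0.05), and single values with two-sided exact permutation tests over 56 splits. Simulated data with known changes were used to test the fit.

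The members and lists were chosen with earlier results of these data known. Named were all members, of each pathway list the 2 genes of lowest p and the brightest, of each marker list the brightest, S100a4, Xist and the 3 nearest profiles of each member. Slc34a1, Slc22a6, Lrpap1, Ocrl, Alb, Apoe and Eif2s3y were added once values had been seen. So were the comparisons with marker means, the separate probe sets and the low-Xist arrays. Lists shared no gene, and some listed genes are not reported here. Promoters are from RefSeq (GRCm38.p6; 7 windows for the 5 genes). Plots: matplotlib 3.10.9, Python 3.11.15.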

Additional observations from a re-analysis of the deposited data

Results flagged for a closer look

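In the group of 5 ischemic arrays, ischemic 3 stood far above the others in Cubn, at 5.79 with the next array at 4.94. The same array stood far above the others in Slc7a9, the gene whose profile was nearest to Cubn, at 6.35 with the next array at 5.14. Slc7a9 was picked for its likeness to Cubn over these same arrays, so it is not a separate result. In Clcn4, ischemic 2 stood apart at 8.20, with the next array at 7.38. These 3 came from 54 sets of ischemic arrays examined, and chance sets apart about 5% of such groups. Groups of 3, such as the normal arrays, were not examined.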

How the results depend on the processing

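In 20 settings tried, the differences of Lrp2, Cubn and Amn kept their sign. The number of genes past limma's adjusted threshold, 0 here, was 173 after centring on 49 ribosomal protein genes, 31 with the intensity trend, 15 without the 40% dimmest genes, 5 with array weights, 2 with the mean of probe sets, 1 with a pseudocount of 1, and 0 to 112 with 1 array left out (112 without normal 3). With ribosomal centring Lrp2 (-4.13), Cubn (-3.30) and Amn (-2.004) passed and Dab2 (-0.051) and Clcn5 (-0.029) turned sign; with the trend Lrp2 (-3.87) passed. Clcn5 was -0.031 with the most variable probe set. Clcn5 minus Dab2 was 0.022 with median or ribosomal centring and 0.18 with the replicate block. In the low-Xist arrays, chosen after seeing the data, the pairs with Dab2 were -4.14 for Lrp2, -2.99 for Cubn and -2.37 for Amn, where the smallest exact p is 0.1. With 1 array left out, Lrp2 ran from -4.42 to -3.33, Cubn from -4.01 to -2.57, Amn from -2.14 to -1.54, Dab2 from 0.017 to 0.44 and Clcn5 from -0.049 to 0.37. The pairs with Dab2 ran from -4.47 to -3.75 (Lrp2), -4.02 to -2.97 (Cubn), -2.22 to -1.88 (Amn) and -0.22 to 0.20 (Clcn5). The causes were not tested.

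With each group's mean removed from every gene, same-numbered arrays correlated at 0.16, -0.088 and 0.10 across genes. So few values cannot settle whether the numbers pair the arrays. With the number as a block, the differences were -3.43 (Lrp2), -2.98 (Cubn), -1.76 (Amn), 0.29 (Dab2) and 0.47 (Clcn5), and 0 genes passed. Amn and Lrp11 are not tested without the dimmest genes. In ischemic arrays Cubn and Amn lie near background, which limits the size of their differences.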
